A study of Homo sapiens with 18 samples.

Results

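Mature microRNAs (miRNAs) of HCT116 cells, an epithelial line from a human colorectal carcinoma, were compared between day 7 and day 5 of growth past confluence. The cells were wild type (WT) in every library and were grown in McCoy's 5A medium with serum. By the labels the groups differ only in day and in cell density, given as 250% confluency for day 5 and 400% for day 7. Whether the days were extracted or prepared in separate batches is not stated. Each day has 3 libraries of whole cell RNA, labelled as biological replicates, and each library was made by adapter ligation from the same amount of total RNA. The study as a whole asked how cell density affects Argonaute, the protein that carries miRNAs, and also sequenced small RNA on day 3, at 50% confluency. The 6 libraries compared here therefore hold one step of that series, from dense to denser cultures, with a single cell line as the model.

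The deposited table lists 2167 mature miRNAs with 1 normalized log2 value per library. A miRNA was a member of the comparison where its value was at least 10 before the log (3.32 on the log2 scale) in at least 3 of the 6 libraries, which left 554 miRNAs. Of these, 498 reached that value in all 6 libraries and 56 in 3 to 5 of them. The rule let 13 miRNAs in through the day 7 libraries alone, which had to differ, and 1 through the day 5 libraries alone. At the edge of the rule, miR-92b-5p was inside and miR-10523-5p outside, with 3.32 in both as the value that had to reach the minimum. Nothing in the labels says whether the replicates were separate cultures, so p-values measure the spread between these libraries, and the table does not give read depth, so no counting error is given.

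miRNAs are short RNAs cut from hairpin precursors, first by DROSHA in the nucleus and then by DICER in the cytoplasm. Of the duplex that DICER leaves, usually one arm (5p or 3p) is loaded into Argonaute and kept, and the other is degraded. The loaded strand pairs with messenger RNAs mainly through its seed, bases 2 to 8 from the 5′ end, and so miRNAs with one seed form a family that can bind the same sites.

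The sequences of the miRNAs on which the results turn are given here with the seed in capitals. They come from the RefSeq set for GRCh38.p14, which held 480 of the 554 members. The first set rose on day 7 whichever scale was used between libraries.
miR-210-3p: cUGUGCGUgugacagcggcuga
miR-21-5p: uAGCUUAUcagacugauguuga
miR-181a-5p: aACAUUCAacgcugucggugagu
miR-301b-3p: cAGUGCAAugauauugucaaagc
miR-141-3p: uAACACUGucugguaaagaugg
miR-574-3p: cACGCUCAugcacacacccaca
miR-30e-5p: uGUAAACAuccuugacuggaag
miR-32-5p: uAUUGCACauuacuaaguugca

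The second set shares a seed with a member of the first but changed less.
miR-181b-5p: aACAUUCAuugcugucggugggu
miR-130b-3p: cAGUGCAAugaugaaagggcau
miR-200c-3p: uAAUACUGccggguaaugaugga
miR-92a-3p: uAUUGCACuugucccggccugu
The seed of miR-200c-3p is that of the other branch of the miR-200 family and is shown for comparison with miR-141-3p.

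The third set fell on day 7.
miR-12135: uAAAGGUUuguuuguaaa
miR-7974: aGGCUGUGaugcucuccugagccc
miR-4455: aGGGUGUGuguguuuuu
miR-128-1-5p: cGGGGCCGuagcacugucugaga
miR-1285-3p: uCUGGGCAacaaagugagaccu
miR-7977: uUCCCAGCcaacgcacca
miR-573: cUGAAGUGauguguaacugaucag
miR-1268a: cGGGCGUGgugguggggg
miR-1246: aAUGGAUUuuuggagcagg

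On the deposited scale, most mature miRNAs called between day 5 and day 7 were higher on day 7, in many families. On library totals most calls were lower instead, 262 against 64 higher, and after median centring 134 were higher and 88 lower, as set out after the deposited values. At an adjusted p under 0.05 on the deposited scale (limma with Benjamini-Hochberg adjustment over the 554 miRNAs), 305 miRNAs (55.1%) differed, of which 269 (48.6%) were higher on day 7 and 36 (6.5%) lower. The median log2 fold change, day 7 minus day 5, was 0.26. The libraries of the days did not overlap in 63.0% of the miRNAs. In 300 (54.2%) all 3 day 7 libraries lay above all 3 day 5 libraries, and in 49 (8.84%) all lay below. Changes were small for single miRNAs: 17 of the called miRNAs differed at least 2-fold, 15 higher and 2 lower, and the 2 lower ones were miR-1246 and miR-573.

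How many miRNAs count as higher depended on the scale between libraries. The values summed over all listed miRNAs came to 1712225, 1884026 and 1770104 in the day 5 libraries and to 2452607, 2600754 and 2493642 in the day 7 libraries. Every day 7 total was above every day 5 total, and the ratio of the means was 1.41, with 1.38 to 1.43 within the pairs of one replicate number. The two-sided exact permutation test gave p = 0.25 within the 3 pairs and p = 0.1 without pairs, each the smallest p that such a design allows. Dividing each library by its own total took 0.49 from every log2 fold change, and centring on the median of the 443 miRNAs with at least 10 CPM took 0.25; CPM (counts per 1000000) here is a miRNA's share of its library's miRNA total. On library totals, 58.8% of the miRNAs were called, 64 (11.6%) higher and 262 (47.3%) lower, so 19.6% of the calls were higher, against 88.2% on the deposited scale. After median centring 40.1% were called, of which 134 (24.2%) were higher and 88 (15.9%) lower, 60.4% of the calls being higher. All 36 falls on the deposited scale stayed falls, since both other scales only lower the values. The 64 rises called on all 3 scales were the same 64 as on library totals, the strictest scale for a rise. With them, 100 miRNAs (18.1%) kept one direction throughout. In RNA from a whole culture, more cells of one state and more of a miRNA per cell cannot be told apart.

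**Figure D1:**
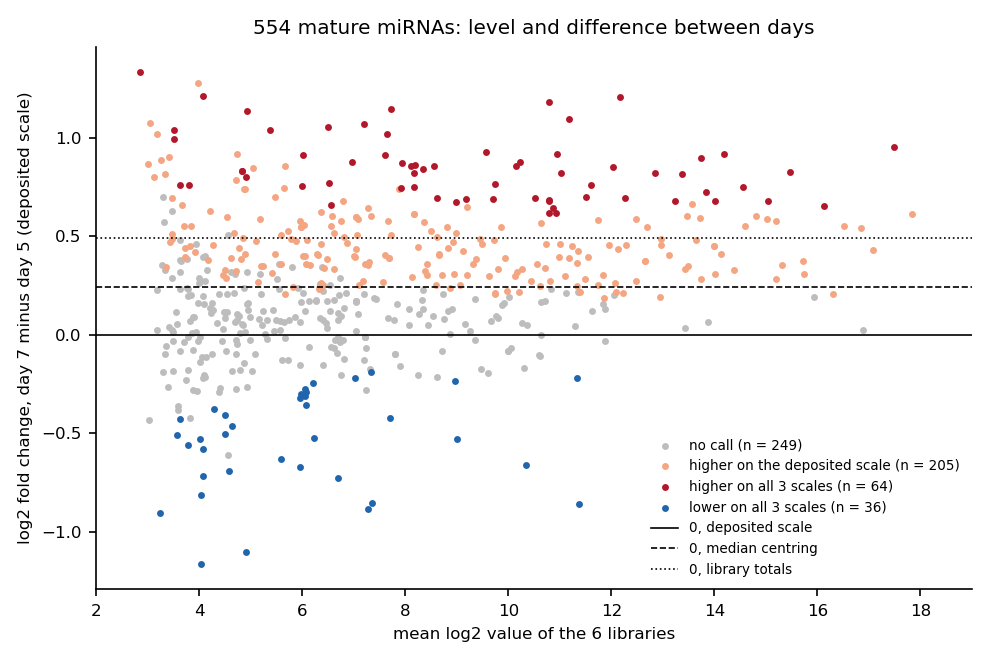
Each point is 1 of the 554 miRNAs, with the mean log2 value of the 6 libraries on the x axis and the log2 fold change, day 7 minus day 5, on the y axis. The solid, dashed and dotted lines mark no change on the deposited scale, after median centring (0.25) and on library totals (0.49); the 64 miRNAs called higher on all 3 scales lie above the dotted line, and the 36 called lower lie below 0.

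The libraries carried the miRNAs that mark the labelled cell type. All 6 markers of epithelial and colonic cells were above the minimum, led by miR-141-3p at 5509 to 7518 CPM and miR-200c-3p at 4136 to 4850 CPM. miR-200b-3p lay at 767 to 924 CPM and miR-192-5p at 729 to 835 CPM. The weakest were miR-194-5p at 65.9 to 81.2 CPM and miR-215-5p at 5.35 to 7.02 CPM. All 6 were called higher on day 7 on the deposited scale, beside 48.6% of all miRNAs, and on library totals 3 were higher and 1 lower, beside 11.6% and 47.3%. The tested markers of other cell types were mostly called higher on the deposited scale too: 2 of 2 for leukocytes, 3 of 3 for fibroblasts and smooth muscle, 1 of 1 for red cells and 1 of 2 for neurons. On library totals only the red cell marker was higher among these, and 1 marker of fibroblasts and smooth muscle and 1 of neurons were lower. The liver marker miR-122-5p reached at most 0.587 CPM, the muscle marker miR-133a-3p 0.168 CPM and the neuronal marker miR-124-3p 0.143 CPM. miR-128-3p and miR-9-5p, which are also high in neurons, were present at 4146 to 6220 and at 1331 to 1467 CPM. Of the leukocyte list, miR-223-3p reached at most 0.336 CPM and miR-142-5p lay between 46.8 and 56.0 CPM. In the fibroblast and smooth muscle list, miR-143-3p, miR-145-5p and miR-199a-3p were present at 56.3 CPM or more in every library, and miR-214-3p reached at most 0.275 CPM. The part of other cell types in the results was not tested.

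The largest rises among the 211 miRNAs that averaged at least 100 CPM were those of miR-210-3p, miR-30d-5p, miR-221-5p and miR-425-5p, each more than 2-fold higher on day 7. miR-210-3p, a miRNA known for its induction by low oxygen, had log2 values of 11.48, 11.71 and 11.51 on day 5 and of 12.73, 12.84 and 12.76 on day 7. The days did not overlap, and the log2 fold change was 1.21 ± 0.08 (SE, limma adjusted p = 0.000138), a 2.31-fold difference. As a share of the library, it rose from 1697 ± 67.0 to 2787 ± 28.8 CPM (SD, n = 3), and on library totals its log2 fold change was 0.72. The mature sequence lies at chr11:568112-568133 on the minus strand, within an intron of the long noncoding RNA gene MIR210HG. Its mean log2 value had been 9.82 on day 3.

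miR-30d-5p, of the miR-30 family, had values of 10.20, 10.21 and 10.16 on day 5 and 11.31, 11.36 and 11.43 on day 7. Its day 5 mean, 10.19, was also its day 3 mean. On the deposited scale the whole difference between the first and the last day thus lay in the later step. Day 3 values on the other scales are not given here. miR-425-5p stood at 10.62, 10.68 and 10.58 on day 5 and at 11.72, 11.74 and 11.71 on day 7. The log2 fold changes were 1.18 ± 0.06 for miR-30d-5p and 1.10 ± 0.06 for miR-425-5p (SE), with a limma adjusted p of 0.000103 for both. miR-221-5p differed from these in its course: 7.09, 7.18 and 7.14 on day 5 and 8.29, 8.40 and 8.17 on day 7, after a day 3 mean of 7.99. On the deposited scale it was thus lower on day 5 than on either other day in its mean values. Its log2 fold change from day 5 to day 7 was 1.15 ± 0.08 (SE, limma adjusted p = 0.000138).

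miR-21-5p, one of the most abundant miRNAs of epithelial tumours, gave the largest gain in share of any miRNA named here. Its log2 values were 17.00, 17.09 and 16.91 on day 5 and 17.91, 17.98 and 17.96 on day 7, a log2 fold change of 0.95 ± 0.07 (SE, limma adjusted p = 0.000143). It made up 73418 ± 3572 CPM on day 5 and 100878 ± 1338 CPM on day 7 (SD, n = 3). The sequence lies at chr17:59841273-59841294 on the plus strand, within an exon of an annotated transcript of VMP1. The other 5 of the 10 largest rises, miR-486-5p, miR-181a-5p, miR-301b-3p, miR-141-3p and miR-574-3p, had log2 fold changes between 0.88 and 0.93 with no overlap between the days, and all 10 were higher on all 3 scales. miR-486-5p is also a red blood cell miRNA; of the other red cell markers, miR-451a reached at most 0.665 CPM and miR-144-3p 0.495 CPM.

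Weaker miRNAs with large rises included miR-9985, which averaged 14.8 CPM. It had values of 4.48, 4.21 and 4.39 on day 5 and 5.42, 5.48 and 5.59 on day 7, a log2 fold change of 1.14 ± 0.09 (SE, limma adjusted p = 0.000162). Its first 15 bases are the same as those of miR-27a-3p and miR-27b-3p, which averaged 11352 and 15761 CPM and rose by 0.75 and 0.59, so how its reads were told from theirs bears on its value. miR-95-3p had 5.86, 6.06 and 5.99 on day 5 and 6.92, 7.12 and 7.03 on day 7, and miR-935 had 7.07, 7.25 and 7.10 and then 8.13, 8.17 and 8.18. Both lay wholly above their day 5 values on day 7, with log2 fold changes of 1.06 and 1.02. The highest log2 fold changes of all, 1.34 for miR-452-5p and 1.28 for miR-5683, belonged to miRNAs of 3.53 and 7.94 CPM. miR-452-5p, with 2.26, 2.13 and 2.12 on day 5 and 3.52, 3.65 and 3.35 on day 7, reached the minimum through the day 7 libraries alone, so it could only be a member by being higher there.

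**Figure D2:**
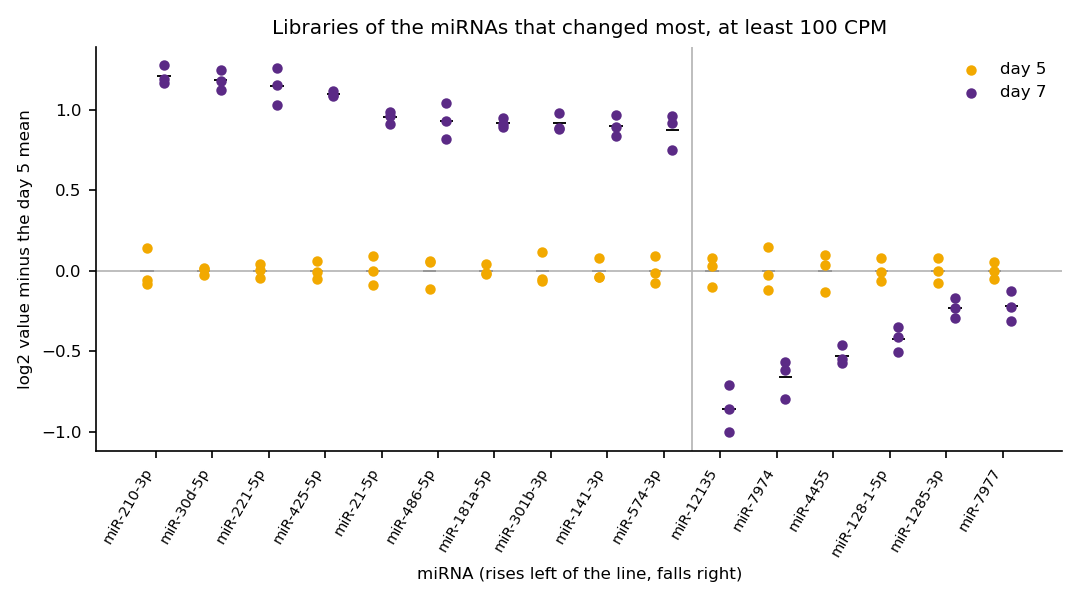
The log2 value of each library minus the miRNA's day 5 mean (y axis), for the 10 largest rises and the 6 falls among miRNAs of at least 100 CPM; orange points are the 3 day 5 libraries, purple points the 3 day 7 libraries, and short lines the means. The days do not overlap for any of the 16. On the deposited scale the falls, from 0.86 to 0.22, are smaller than the rises. That order depends on the scale: miR-12135 is at -1.35 on library totals and at -1.10 after median centring.

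On the deposited scale 36 miRNAs fell, 6 of them at 100 CPM or more, against 262 on library totals and 88 after median centring. miR-12135 fell most among these, from log2 values of 11.83, 11.88 and 11.70 on day 5 to 10.94, 10.80 and 11.09 on day 7. The log2 fold change was -0.86 ± 0.09 (SE, limma adjusted p = 0.000365), and the share dropped from 1998 ± 124 to 786 ± 96.1 CPM (SD, n = 3). On the deposited scale it was already lower on day 5 than its day 3 mean of 12.23. The sequence lies in an intron of NEO1, at chr15:73299962-73299979. miR-7974 had values of 10.56, 10.82 and 10.65 on day 5 and 10.06, 10.11 and 9.88 on day 7, and miR-4455 went from 9.30, 9.36 and 9.13 to 8.69, 8.71 and 8.80. Their log2 fold changes were -0.66 and -0.53 (limma adjusted p = 0.00146 and 0.00166). In both, every day 7 library was below every day 5 library.

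miR-128-1-5p is the less abundant arm of a hairpin in an intron of R3HDM1. It stood at 7.90, 7.98 and 7.84 on day 5 and at 7.49, 7.56 and 7.40 on day 7, a log2 fold change of -0.42, while the other arm, miR-128-3p, had 13.38, 13.44 and 13.39 and then 13.44, 13.40 and 13.47 and was not called (0.03 ± 0.06 SE, limma adjusted p = 0.655). The smallest of the 6 falls, -0.23 for miR-1285-3p and -0.22 for miR-7977, passed the threshold with adjusted p of 0.0276 and 0.0367 (limma). The call of miR-1285-3p was lost without day 5 replicate 2 or 3 or day 7 replicate 2 or 3 (-0.24 to -0.19), and that of miR-7977 without any single library but day 7 replicate 1 (-0.25 to -0.17). Below 100 CPM, miR-573, in an intron of DHX15, fell from 5.37, 5.56 and 5.43 to 4.23, 4.59 and 4.23, and miR-1246 from 4.70, 4.73 and 4.38 to 3.68, 3.30 and 3.34. Their log2 fold changes were -1.10 and -1.16, the largest falls among the 554. miR-1268a (-0.88) and miR-1268b (-0.85) share their first 18 bases, which is the whole of miR-1268a, so their reads cannot be assigned to one of them by sequence alone, and miR-1261 fell by 0.73.

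Several features of the sequences that fell and of those that rose are set side by side here, with no test. Of the 33 called lower that had a sequence, 6 (18.2%) matched the genome exactly at more than 3 places, against 7 of 231 (3.03%) called higher and 28 of 480 (5.83%) of all. Those 6 were miR-1246 with 20 exact matches, of which 8 lay in annotated small RNA genes of other kinds, miR-1268a with 36, miR-1268b with 7, miR-1285-3p with 18, miR-4455 with 4 and miR-5585-3p with 678. A read of such a sequence need not come from the annotated hairpin. The median GC content was 57.1% for the falls and 47.6% for the rises, and 16 of the 36 falls (44.4%) were miRNAs numbered 3000 or above, which were catalogued late and mostly from deep sequencing, against 19.3% overall. Of all tested miRNAs with such numbers, 29 (27.1%) were higher and 16 lower, beside 48.6% and 6.5% of all, with a median log2 fold change of 0.07 beside 0.26.

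Argonaute binds U best as the first base at the 5′ end of its guide. A first base of U was found in 110 of 231 sequences (47.6%) called higher on the deposited scale. It was found in 36 of 52 (69.2%) higher on all 3 scales, in 7 of 33 (21.2%) of those lower and in 188 of all 480 (39.2%). The median log2 fold change was 0.34 for miRNAs starting with U, 0.25 for A, 0.20 for G and 0.19 for C. By GC content it was 0.26 below 35%, 0.36 from 35 to 45%, 0.31 from 45 to 55%, 0.20 from 55 to 65% and 0.07 above 65%. First base, GC content and abundance go together among these miRNAs: the share starting with U was 30.3% at 10 to 100 CPM and 66.7% above 10000 CPM. Their separate parts in the difference between days were not tested.

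Abundant miRNAs had higher log2 fold changes than weak ones. The median log2 fold change was 0.20 for the 111 miRNAs under 10 CPM, 0.19 for 232 between 10 and 100, 0.30 for the 126 and 0.39 for the 64 in the next steps of 10-fold abundance, and 0.55 for the 21 above 10000 CPM. On the deposited scale 19 of those 21 (90.5%) were called higher and none lower. Of the 111 weakest, 29 (26.1%) were higher and 10 (9.01%) lower, beside 48.6% and 6.5% of all 554. Low values are compressed on the deposited log2 scale, and fewer reads stand behind them; the part of either in this gradient was not tested.

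**Figure D3:**
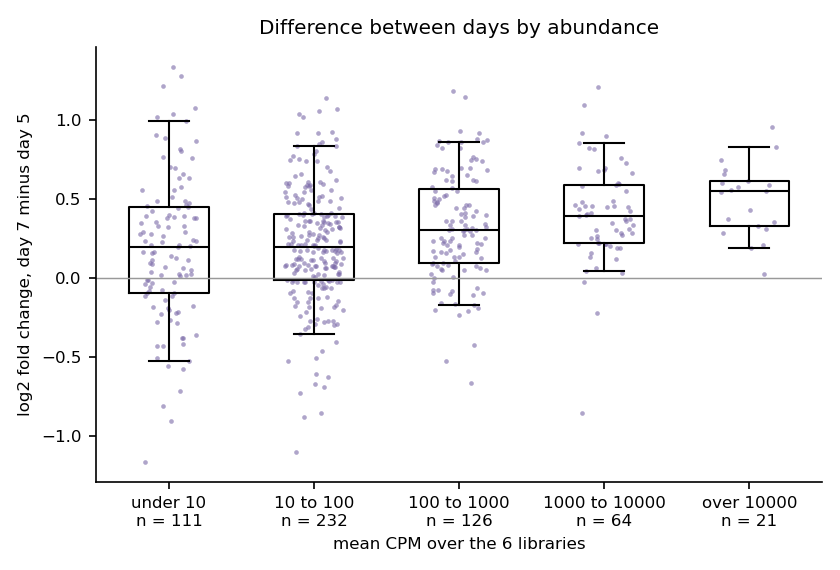
Log2 fold change, day 7 minus day 5 (y axis), of the 554 miRNAs in 5 classes of mean CPM (x axis); boxes give the quartiles and median, whiskers the 5th to 95th percentile, and points the single miRNAs. The medians go from 0.20 in the weakest class to 0.55 in the most abundant.

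The 10 most abundant miRNAs made up 54.5 ± 0.379% of the day 5 values and 55.1 ± 0.273% of the day 7 values (SD, n = 3). The first, miR-100-5p, had log2 values of 17.41, 17.59 and 17.59 on day 5 and 18.05, 18.22 and 18.17 on day 7, a log2 fold change of 0.62 ± 0.08 (SE, limma adjusted p = 0.000884). miR-92a-3p, of the oncogenic miR-17-92 cluster, stood at 16.83, 16.96 and 16.85 and then 16.92, 16.93 and 16.87, and the days overlapped (0.03 ± 0.06 SE, limma adjusted p = 0.743). Its share of the library went from 67398 ± 702.9 to 48813 ± 1367 CPM (SD, n = 3), and on library totals it was called lower (-0.47, limma adjusted p = 0.000679). Between these lay miR-26a-5p at 0.66, let-7a-5p at 0.55, miR-10a-5p at 0.54, miR-191-5p at 0.43, miR-99b-5p at 0.31 and miR-22-3p at 0.21, all called higher, and miR-92b-3p at 0.19, not called (limma adjusted p = 0.0671). The call of miR-22-3p was lost without each of 4 libraries (0.18 to 0.20), all but day 5 replicate 2 and day 7 replicate 1, and that of miR-99b-5p without day 5 replicate 1 or day 7 replicate 2 or 3 (0.23 to 0.32). With miR-21-5p, 8 of the 10 were called higher on the deposited scale with all libraries, beside 48.6% of all miRNAs. On all 3 scales this held for miR-21-5p and miR-26a-5p, beside 11.6% of all.

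In 24 lists of miRNA families and clusters, 105 of 123 members were tested. Of these, 89 were called higher, none lower and 16 neither, beside 48.6% higher and 6.5% lower among all 554, and in 19 lists every tested member was higher. On library totals 35 of the 105 were higher and 29 lower, beside 11.6% and 47.3% of all 554, and 35 were higher on all 3 scales, beside 11.6%. The lists hold mostly abundant, conserved miRNAs, and the classes of abundant miRNAs had the higher medians above.

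**Figure D4:**
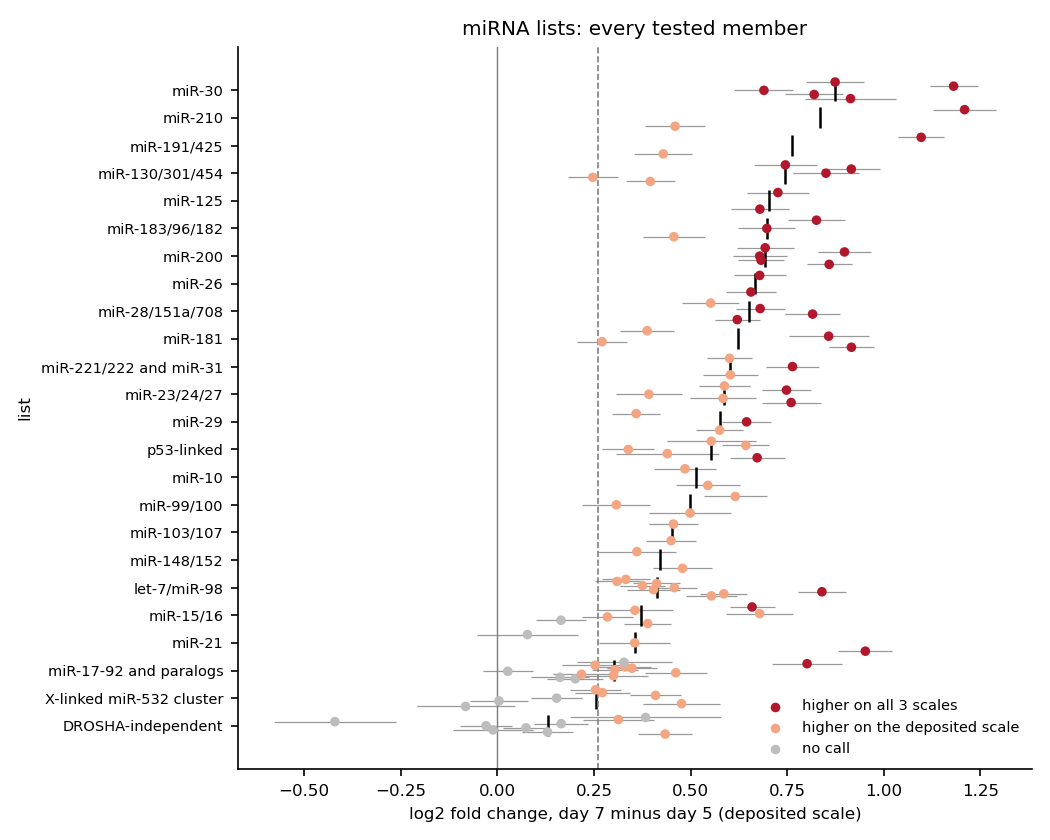
Log2 fold change, day 7 minus day 5 (x axis), of every tested member of 24 lists (y axis, ordered by median), with SE bars from limma; black ticks are list medians, the solid line is 0 and the dashed line the median of all 554 miRNAs, 0.26. The miR-30 and miR-200 members are all red, that is higher on all 3 scales, and the DROSHA-independent list is centred lowest.

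The miR-30 family, which shares the seed GUAAACA, rose in all 5 members and on all 3 scales. Of all 554 miRNAs, 48.6% were higher on the deposited scale and 11.6% on all 3. The log2 fold changes were 1.18 for miR-30d-5p, 0.91 for miR-30a-5p, 0.87 for miR-30e-5p, 0.82 for miR-30b-5p and 0.69 for miR-30c-5p, with a median of 0.87. The most abundant, miR-30b-5p, had values of 12.36, 12.49 and 12.46 on day 5 and 13.15, 13.33 and 13.28 on day 7. Together the 5 made up 0.425 ± 0.00785% of the day 5 libraries and 0.553 ± 0.0179% of the day 7 libraries (SD, n = 3).

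The miR-200 family holds cells in an epithelial state by repressing the ZEB factors. It also rose in all 5 members on all 3 scales, beside 11.6% of all miRNAs. Its 2 seeds, which differ at a single base, had different log2 fold changes, a difference given as values and not tested. miR-141-3p and miR-200a-3p, with the seed AACACUG, rose by 0.90 ± 0.07 and 0.86 ± 0.06 (SE). miR-200b-3p, miR-200c-3p and miR-429, with AAUACUG, rose by 0.68 to 0.69. The split ran across the clusters, since miR-200a lies with miR-200b and miR-429 on chromosome 1 and miR-141 beside miR-200c on chromosome 12, 390 bases apart. The family's share was 1.33 ± 0.0275% on day 5 and 1.62 ± 0.00903% on day 7 (SD, n = 3).

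In the miR-181 family one seed, ACAUUCA, covered rises of unequal size. miR-181a-5p had values of 13.71, 13.77 and 13.71 on day 5 and 14.64, 14.68 and 14.62 on day 7, and rose by 0.92 ± 0.06 (SE). miR-181b-5p had 10.61, 10.73 and 10.66 and then 10.94, 10.99 and 10.89, and rose by 0.27 ± 0.06 (SE). Both are cut from the same pair of clusters, within the noncoding RNA genes MIR181A1HG on chromosome 1 and MIR181A2HG on chromosome 9, and the difference between them was 3.04 to 3.10 in the day 5 libraries and 3.69 to 3.73 in the day 7 libraries. The pair miR-181c-5p and miR-181d-5p, 163 bases apart on chromosome 19, repeated this at 0.86 and 0.39. On library totals miR-181b-5p was lower on day 7 (-0.22, limma adjusted p = 0.00638), while miR-181a-5p and miR-181c-5p stayed higher.

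The seed AGUGCAA of the family of miR-130a, miR-301a and their relatives gave a like case. miR-301b-3p and miR-130b-3p are neighbours on chromosome 22, 306 bases apart. miR-301b-3p rose by 0.92, from 10.44, 10.61 and 10.43 to 11.37, 11.47 and 11.38, and miR-130b-3p by 0.25, from 11.17, 11.28 and 11.16 to 11.47, 11.48 and 11.41. The call of miR-130b-3p was lost without day 5 replicate 3 or day 7 replicate 2 (0.23 for both). On day 5 miR-301b-3p was thus the lower of the pair by 0.68 to 0.73, and on day 7 by 0.01 to 0.09. miR-301a-3p (0.85), miR-454-3p (0.75) and miR-130a-3p (0.40) completed the list, all 5 called higher on the deposited scale, beside 48.6% of all miRNAs. On library totals miR-130a-3p and miR-130b-3p were below 0, at -0.10 and -0.25.

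In other clusters too, neighbouring hairpins had log2 fold changes that differed in size. Pairs that are not neighbours were not set beside them. Each hairpin stood for the more abundant of its arms that had a sequence. Among members with a sequence and at least 10 CPM, 51 pairs of different miRNAs came from consecutive hairpins within 10000 bases on one strand. Hairpins of one cluster with another such hairpin between them were not paired. On the deposited scale both were higher in 37 pairs, in 11 one and in 3 none. In no pair was one called higher and the other lower. Of all 554 miRNAs, 48.6% were called higher and 6.5% lower. The median difference between their log2 fold changes was 0.20. In 32 of the 51 pairs (62.7%) the difference between the neighbours did not overlap between the days, a comparison that no scale between libraries can change. For single miRNAs on the deposited scale the share with no overlap was 63.0%. The pairs miR-301b-3p with miR-130b-3p, miR-181a-5p with miR-181b-5p, and miR-18b-5p with miR-106a-5p on chromosome X differed by more than 0.5. The miR-425 hairpin entered as its less abundant arm, miR-425-3p (0.23), beside miR-191-5p (0.43). Its more abundant arm, miR-425-5p (1.10), had no sequence and is not in these pairs.

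Members with one seed differed clearly in the size of their change in some families and little in others. Of 44 seeds shared by 2 or more members of at least 10 CPM, 25 had all members higher on the deposited scale, 11 some and 8 none. None had a member called higher beside one called lower. Of all 554 miRNAs, 48.6% were called higher on that scale. The range within a seed had a median of 0.17 and reached 1.06, beside quartiles of 0.04 and 0.49 for all 554 log2 fold changes. These counts include miR-365a-3p with miR-365b-3p and miR-199a-3p with miR-199b-3p, which had identical values. Both pairs count among the seeds with all members higher, and their agreement was fixed. With the seed AUUGCAC, miR-32-5p rose by 0.86 ± 0.09 (SE), from 7.75, 7.88 and 7.61 to 8.66, 8.64 and 8.54, and miR-25-3p by 0.33, while miR-92b-3p (0.19) and miR-92a-3p (0.03) were not called. With AGCUUAU, the seed of miR-21-5p, miR-590-5p was not called at 0.08. Reads of near-identical family members can be assigned to either, so the values of such members are uncertain.

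On the deposited scale, the lists with the smallest changes included the miR-17-92 cluster and its paralogs, an X-linked cluster around miR-532 and the DROSHA-independent miRNAs. In miR-17-92 and its paralogs, whose members promote proliferation, 8 of 12 tested members were higher, beside 48.6% of all miRNAs, with a median of 0.30. On all 3 scales 1 of the 12, miR-18b-5p (0.80), was higher, beside 11.6% of all, and on library totals 9 were lower, beside 47.3%. The list's share of the libraries was 9.30, 9.23 and 9.07% on day 5 and 7.23, 6.96 and 6.96% on day 7, so all day 7 libraries lay below. In the X-linked cluster 4 of 7 were higher on the deposited scale, with log2 fold changes from -0.08 to 0.48 and a median of 0.25, and 5 of 7 were lower on library totals, read against the same shares.

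Of the DROSHA-independent miRNAs, whose precursors are made by splicing or by transcription and need no DROSHA, 9 of 22 listed names were tested and 2 were called higher on the deposited scale, beside 48.6% of all miRNAs: miR-320a-3p (0.43) and miR-1226-3p (0.31). The call of miR-1226-3p was lost without each of 5 libraries (0.24 to 0.33), all but day 7 replicate 1. The median was 0.13, against 0.26 for all miRNAs, and on library totals none of the 9 was higher and 6 were lower, beside 11.6% and 47.3%. miR-484, whose precursor is a capped transcript, stood at 11.80, 11.93 and 11.91 on day 5 and at 11.80, 11.90 and 11.86 on day 7, and the days overlapped (-0.03 ± 0.07 SE, limma adjusted p = 0.733). miR-877-3p had the lowest value of the list, -0.42, and missed the threshold (limma adjusted p = 0.0578). The list's share was 0.471 ± 0.0176% on day 5 and 0.387 ± 0.00200% on day 7 (SD, n = 3).

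let-7, the differentiation-linked family that is one of the largest in these cells, rose in all 9 members on the deposited scale, by 0.31 (let-7i-5p) to 0.84 (let-7c-5p), beside 48.6% of all miRNAs, while on library totals 1 was higher and 2 were lower, beside 11.6% and 47.3%. Its share overlapped between the days, at 9.86 to 10.4% on day 5 and 9.80 to 10.2% on day 7. Of the p53-linked miRNAs, 5 of 5 tested were higher, led by miR-34a-5p at 0.67, and of the miR-15/16 family 5 of 6, with miR-16-5p at 0.28; on library totals these became 1 higher and 1 lower, and 1 higher and 2 lower, to be read against the same shares. In the cluster of miR-183, found in epithelial and sensory cells, the log2 fold changes were 0.83 for miR-182-5p, 0.70 for miR-96-5p and 0.46 for miR-183-5p, of which the last was -0.04 on library totals.

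Both arms were measured for 137 hairpins, a comparison within a library that is free of the scale between libraries. Not all pairs are separate measurements: miR-3184-3p and miR-423-5p had identical values, as did miR-548o-5p and miR-548c-5p. The arm with the higher mean over the 6 libraries rose more than its partner in 88 hairpins, by a median of 0.18 on the log2 scale. The median log2 fold change was 0.39 for the more abundant arms and 0.23 for the less abundant ones. On the deposited scale 96 of the more abundant arms were called higher and 2 lower, and of their partners 60 higher and 7 lower. Of all 554 miRNAs, 48.6% were called higher and 6.5% lower. The difference between the arms did not overlap between the days in 75 hairpins (54.7%): the more abundant arm gained in 60 (43.8%) and lost in 15 (10.9%). Among the 36 hairpins with both arms at 100 CPM or more, it rose more in 27, by a median of 0.17.

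Both arms were called, and in opposite directions, in 5 hairpins on the deposited scale: miR-301a, miR-25, miR-454, miR-148b and miR-19a, and in each the more abundant arm was the one called higher. miR-25-3p, at 10017 CPM, went from 14.17, 14.29 and 14.16 to 14.56, 14.58 and 14.48, while miR-25-5p, at 32.0 CPM, went from 6.39, 6.31 and 6.19 to 5.87, 5.55 and 5.46. The difference between these arms was thus 7.78 to 7.98 on day 5 and 8.69 to 9.03 on day 7. In miR-301a, the 3p arm rose by 0.85 and the 5p arm fell by 0.32, from 6.08, 6.10 and 6.18 to 5.83, 5.75 and 5.81. In miR-454, whose arms were close in abundance at 115 and 63.3 CPM, the 3p arm rose by 0.75 and the 5p arm fell by 0.22. On library totals, the rises of miR-25-3p, miR-148b-3p and miR-19a-3p turned below 0, whereas those of miR-301a-3p and miR-454-3p did not. The call of miR-148b-3p was lost without each of 4 libraries (0.31 to 0.35), all but day 5 replicate 2 and day 7 replicate 3, and that of miR-19a-3p without each of 4 (0.25 to 0.29), all but day 5 replicate 2 and day 7 replicate 1.

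Among the largest rises, the arms also parted. miR-210-5p rose by 0.46 where miR-210-3p rose by 1.21, and miR-21-3p by 0.36 where miR-21-5p rose by 0.95. The call of miR-21-3p was lost without day 7 replicate 2 (0.29). The reverse was seen in miR-221, where the minor arm miR-221-5p rose by 1.15 and miR-221-3p, 133 times more abundant, by 0.60. The same direction held in its neighbour miR-222, with miR-222-3p at 0.76 and miR-222-5p, here the more abundant arm, at 0.12 (limma adjusted p = 0.496), and in miR-361, with miR-361-3p at 1.07 and miR-361-5p at 0.48. In miR-30e the arm with the family seed, miR-30e-5p, was the less abundant and rose by 0.87, and miR-30e-3p by 0.33. Both arms of miR-486 rose to a like extent, miR-486-5p by 0.93 and miR-486-3p by 1.04. On library totals, miR-210-5p (-0.03), miR-21-3p (-0.14), miR-361-5p (-0.01) and miR-30e-3p (-0.16) were below 0 and their partners above.

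**Figure D5:**
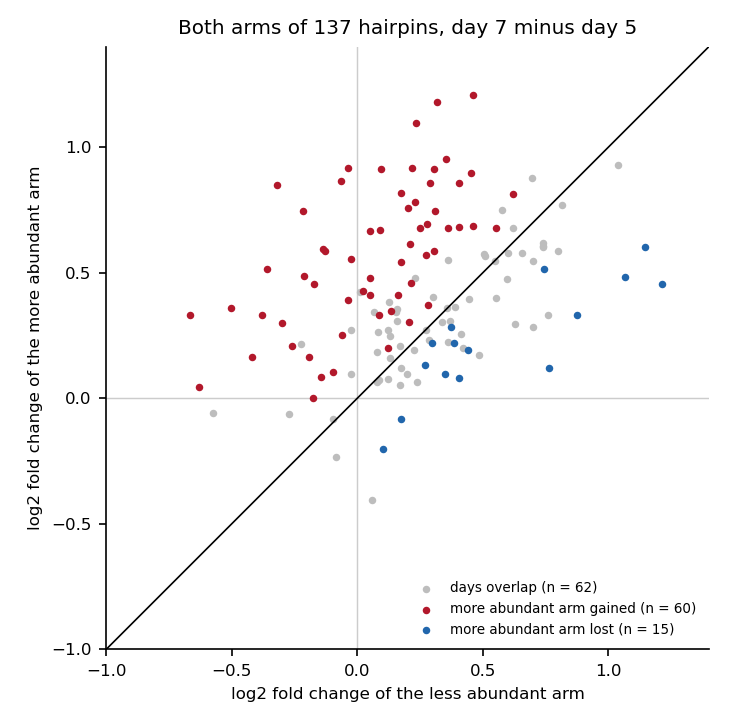
Log2 fold change, day 7 minus day 5, of the less abundant arm (x axis) and the more abundant arm (y axis) of 137 hairpins; the diagonal marks equal change. Red points (60) are hairpins whose more abundant arm gained on its partner with no overlap between the days, blue points (15) those where it lost, and grey points (62) those where the days overlap.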

How the data were processed

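Small RNA of HCT116 cells was sequenced on days 3, 5 and 7, with 3 libraries per day; groups and replicate numbers were taken from the sample labels. Per the methods, the authors trimmed the reads with Cutadapt, aligned them with the mature and hairpin miRNAs of GRCh37 and normalized counts by TMM with edgeR. The deposited log2 values are normalized between libraries by the authors and reach from -2.64 to 18.2 in the 6 libraries used; the log2 transformation itself is not given in the sources used here, low values are compressed on it, and depth and counting error are unknown. No molecular identifiers were used. The authors' own fold changes and p-values in the same tables, the hairpin reads and the whole transcriptome were not used.

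Days 7 and 5 were compared with limma (version 3.58.1, R 4.3.3; group means, no pseudocount), with Benjamini-Hochberg adjustment over the 554 miRNAs and a threshold of 0.05. The fit with limma was first tested on simulated data. Totals were compared by exact permutation tests. CPM was computed here as the back-transformed value as a share of a library's total over 2167 miRNAs, times 1000000. Lists, arms, seeds, neighbours and sequence features are descriptions without tests. Exact genome matches were counted on hg38, and host genes came from GENCODE 44. Python 3.11.15, pandas 2.3.3, numpy 2.4.6, scipy 1.17.1 and matplotlib 3.10.9 were used.

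The miRNAs named were, among those with no overlap between the days, the 10 largest rises and 10 largest falls of at least 100 CPM (6 fell), the 5 largest of each of at least 10 CPM, the 10 most abundant, and examples of 24 lists; others, such as miR-32-5p, miR-95-3p and the arm and neighbour examples, were chosen after their values were seen. Members and lists were chosen with earlier results of these data known. Alternatives were library totals, median centring, other filters on low values, an offset of 10, all 9 libraries in one fit, the replicate number as a block, a trended prior, a 2-fold minimum and leaving out each library.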

Additional observations from a re-analysis of the deposited data

How the results depend on the processing

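The scale between libraries decided the direction of weakly changed miRNAs, and the cause of the shift between scales was not tested. The median log2 fold change was -0.23 on library totals, 0.014 after median centring and 0.020 with no filter on low values (2167 miRNAs, 247 called), and 0.24 to 0.30 when 1 library was left out. The count of called miRNAs was 256 to 314 with 1 library left out and 17 with a 2-fold minimum; every other alternative gave at most 326 and stayed within 1.5 times of 305. The ratio of totals was 1.39 to 1.42 without each replicate number. The replicate number as a block gave 309 calls, 288 of them shared with the fit without it. Deviations of same-numbered libraries correlated at 0.003, -0.11 and 0.07, and those of differently numbered ones at -0.17 to 0.18. With 3 libraries per day, these values cannot decide whether the numbers pair the libraries. Under the block miR-1285-3p, miR-5585-3p and miR-7977 were no longer called, and no other named miRNA lost its call.

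On library totals the log2 fold change turned below 0 for let-7i-5p (-0.18), miR-106a-5p (-0.24), miR-1226-3p (-0.18), miR-128-3p (-0.46), miR-130a-3p (-0.10), miR-130b-3p (-0.25), miR-148b-3p (-0.13), miR-16-5p (-0.21), miR-181b-5p (-0.22), miR-181d-5p (-0.11), miR-183-5p (-0.036), miR-191-5p (-0.064), miR-19a-3p (-0.19), miR-21-3p (-0.14), miR-210-5p (-0.033), miR-22-3p (-0.28), miR-222-5p (-0.37), miR-25-3p (-0.16), miR-30e-3p (-0.16), miR-320a-3p (-0.059), miR-361-5p (-0.010), miR-590-5p (-0.41), miR-92a-3p (-0.47), miR-92b-3p (-0.30) and miR-99b-5p (-0.18). After median centring it did so for miR-128-3p (-0.21), miR-22-3p (-0.037), miR-222-5p (-0.12), miR-590-5p (-0.17), miR-92a-3p (-0.22) and miR-92b-3p (-0.054). Without day 7 replicate 1 it did so for miR-222-5p (-0.025) and miR-590-5p (-0.0029), which lay between these values and 0.23 and 0.22 as single libraries were left out. Of the 82 named miRNAs, 11 lost their call without at least 1 library, at log2 fold changes of -0.44 to 0.35: miR-106a-5p, miR-1226-3p, miR-1285-3p, miR-130b-3p, miR-148b-3p, miR-19a-3p, miR-21-3p, miR-22-3p, miR-5585-3p, miR-7977 and miR-99b-5p.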
